A study of Mus musculus with 10 samples.

Results

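The ATF4 stress response genes described here are 10 mouse genes chosen by name: Atf3, Atf4, Atf5, Ddit3, Ddit4, Asns, Chac1, Psat1, Phgdh and Slc7a11. These genes and the lists of other genes used below were chosen with earlier results of these data known. All 10 of the 18194 genes with a value on the array were found, and all 10 were among the 11993 genes bright enough to be tested. The arrays carry 21 probe sets for them, of which 19 name 1 gene and 2 name a second gene as well. Total RNA from cultured mouse leukemia stem cell lines was measured on 10 Affymetrix arrays, 1 per sample. The first group holds RH-RAS lines 1 and 3 after 4 days in 1 µM SGC0946, a small-molecule inhibitor of the histone methyltransferase Dot1l. The second group is 1 line transformed by the fusion protein MLL-AF9, and the third is 3 lines transformed by the fusion protein NUP98-JARID1A. The last group is 4 untreated RH-RAS lines, numbered 1 to 4 and, per the series' design text, derived independently of each other. RH-RAS cells, treated or not, coexpress DNMT3A carrying R882H and NRAS carrying G12D, and the labels give neither allele to the fusion lines. The labels give 1 culture medium for all lines, containing stem cell factor. The labels do not say whether the NUP98-JARID1A lines are separate derivations or whether untreated cultures received a vehicle, so a p-value speaks of the spread among these arrays alone.

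ATF4 is the transcription factor at the centre of the integrated stress response. When a kinase phosphorylates the translation factor eIF2 alpha, as happens under amino acid shortage, unfolded protein in the endoplasmic reticulum, heme shortage or viral RNA, general translation slows while the Atf4 message is translated more. ATF4 then binds DNA as a heterodimer, often with C/EBP proteins, and switches on genes for amino acid synthesis, uptake and tRNA charging together with further stress factors. Because much of this control acts on translation, the level of Atf4 RNA need not follow ATF4 activity. Atf3, Atf5 and Ddit3 (also called CHOP) encode transcription factors of the response. Ddit4 encodes REDD1, an inhibitor of mTORC1 signalling, and Chac1 encodes an enzyme that degrades glutathione. Asns makes asparagine, Phgdh and Psat1 catalyse successive steps of serine synthesis, and Slc7a11 is the cystine carrier of the cystine/glutamate exchanger.

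The DNA element through which ATF4 heterodimers act shares the core TGATGNAA, where N is any base. This core was searched for on both strands of the RefSeq promoter windows of assembly GRCm38.p6, from 250 bases before to 50 bases after each annotated start, and all 10 genes had a window. It occurred in the windows of 4 of the 10 genes, against 4.51% of 27025 genes in the table. The stretches of 100 bases around these matches are printed 5′ to 3′ on the gene's own strand because they show where the element lies in the genes whose levels follow. Capitals mark the match, which lies on the opposite strand where it is written TTGCATCA. Atf3 lies on the minus strand (chr1:191183390-191183489) with the match 110 to 103 bases before the start. Chac1 lies on the plus strand (chr2:119351003-119351102) with the match 193 to 186 bases before the start. Slc7a11 lies on the minus strand (chr3:50443617-50443716) with 2 matches, at 66 to 59 and at 47 to 40 bases before the start. Asns lies on the minus strand (chr6:7693179-7693278) with the match 23 to 16 bases before the start.
Atf3: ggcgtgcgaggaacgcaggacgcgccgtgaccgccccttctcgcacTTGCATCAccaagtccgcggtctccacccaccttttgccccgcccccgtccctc
Chac1: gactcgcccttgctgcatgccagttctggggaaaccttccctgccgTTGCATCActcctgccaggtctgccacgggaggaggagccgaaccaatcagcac
Slc7a11: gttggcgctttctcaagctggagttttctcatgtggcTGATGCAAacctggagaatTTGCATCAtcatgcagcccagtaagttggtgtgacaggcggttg
Asns: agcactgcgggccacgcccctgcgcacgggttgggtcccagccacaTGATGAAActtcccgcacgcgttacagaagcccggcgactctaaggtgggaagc

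The match in Atf3, Chac1 and the nearer one in Slc7a11 share all 8 letters, TTGCATCA, a string found in the windows of 1.03% of genes, and the other match in Slc7a11 is its reverse complement. The match in Asns differs at the free base. In the windows of Atf4, Atf5, Ddit3, Ddit4, Psat1 and Phgdh these letters did not occur, which says only that they are not in these windows. Among 64 genes of the wider pathway with a window, 14 held the core. Of these, Trib3, Gars, Iars, Slc1a4 and Herpud1 were lower in the NUP98-JARID1A lines in the comparison given further on. Aars, Eif2s3x, Got1, Jdp2, Nupr1, Tars and Yars did not pass there, and Fgf21 and Vldlr were too dim to be tested. Of all 83 tested genes of the wider pathway, with or without the core, 32 were lower in that comparison. Whether the core goes with the direction was not tested. A match is a string of letters and not a measured site of binding.

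The values are log2 intensities, so a difference of 1 is a 2-fold difference, and a level of 1 probe set is not comparable with that of another. Where a gene has several probe sets, the one that was brightest on average stands for it, and the rest are described further on. Array medians lay between 5.72 and 5.82 and maxima between 14.7 and 14.8. All of Kit, Cd34, Ptprc, Flt3, Myb, Meis1, Gata2 and Mpo, which mark blood stem and progenitor cells, averaged above the array median in every group. Of 5 fibroblast and stromal genes, Col1a1, Col1a2 and Dcn lay below it on all arrays. Fn1 had 10.46, 8.06 and 10.44 in NUP98-JARID1A lines 1 to 3 and 8.80 in the MLL-AF9 line, against 5.62 to 6.10 in untreated lines. Pdgfrb had 7.44 in NUP98-JARID1A line 1 and 5.39 to 6.03 on the other arrays. Levels of these bulk samples cannot tell fewer cells of a type from less RNA per cell. Markers of mature myeloid cells differed strongly between the groups and are given beside the results below.

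**Figure D1:**
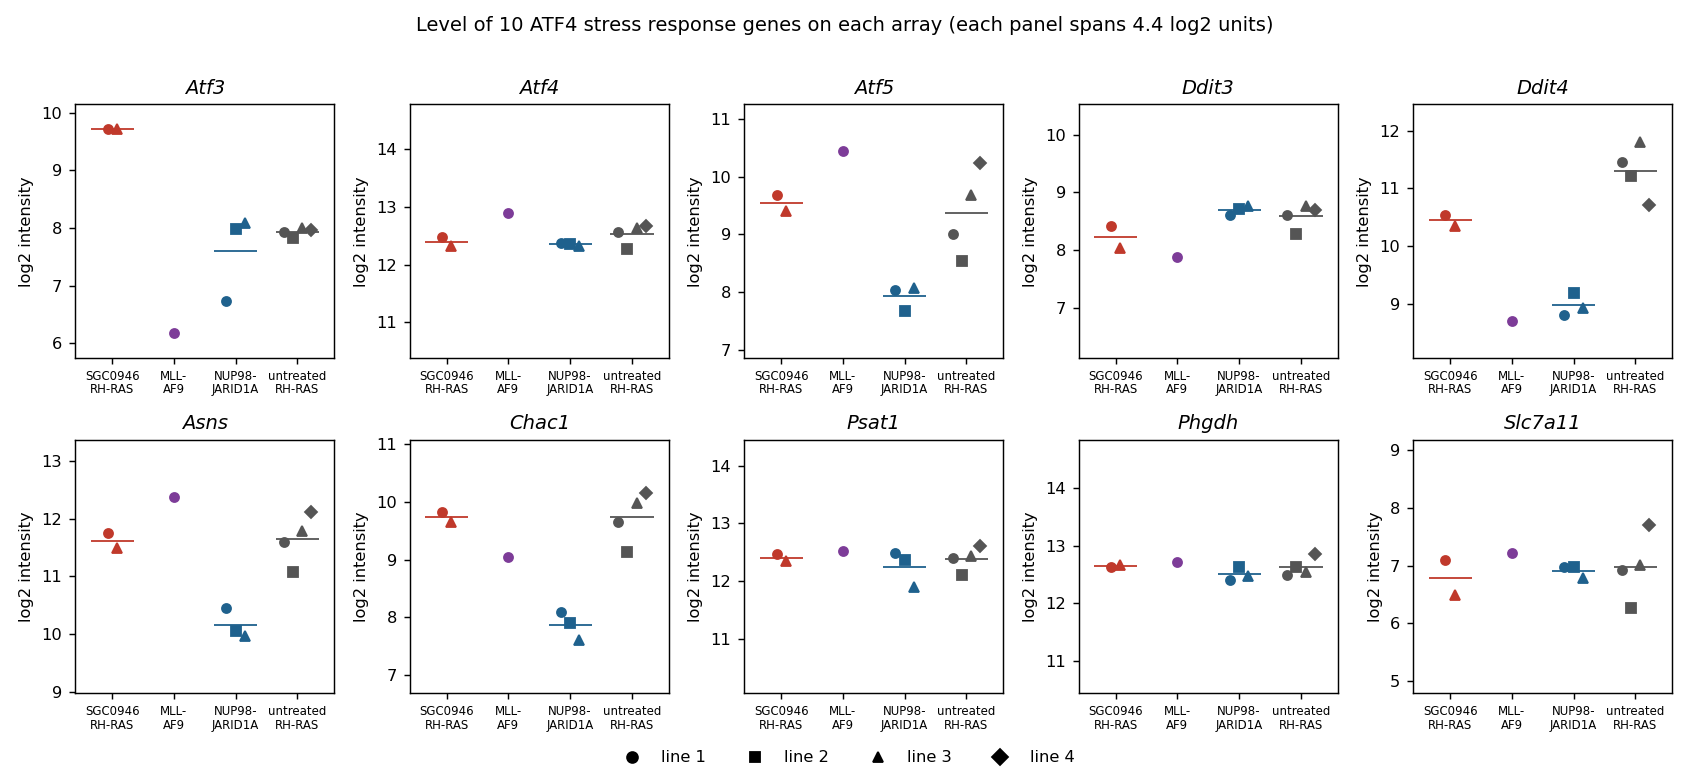
Log2 intensity (vertical axis) of each of the 10 genes on every array, with the groups along the horizontal axis, marker shape giving the line number and horizontal bars giving group means. Each panel spans the same number of log2 units, so that the low Atf5, Ddit4, Asns and Chac1 points of the NUP98-JARID1A lines can be set against the flat Atf4, Psat1 and Phgdh panels.

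In the NUP98-JARID1A lines, 4 of the 10 genes were lower than in the untreated RH-RAS lines and none of the 10 was higher. These were Ddit4, Chac1, Asns and Atf5, and all 4 were at least 2-fold lower. Where the groups are said below not to overlap for a gene, this only describes its levels. The share of all genes without overlap was not counted. Over all genes tested, limma called 18.5% lower and 32.5% higher in this comparison, and 5.37% both lower and at least 2-fold lower. The share of 2-fold lower genes was counted after the values had been seen. The median difference of the 10 genes was -0.25, against 0.10 over all genes tested.

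Ddit4 had log2 levels of 8.80, 9.19 and 8.92 in NUP98-JARID1A lines 1 to 3, against 11.46, 11.22, 11.81 and 10.71 in untreated RH-RAS lines 1 to 4. Every NUP98-JARID1A line lay below every untreated line. The difference was -2.33 ± 0.25 on the log2 scale (SE), a 5.04-fold lower intensity, with a limma adjusted p of 0.000289. Ddit4 stands apart from the other 3 lower genes among the untreated lines too, since line 4 was the lowest of them and not the highest.

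Chac1 had levels of 8.10, 7.91 and 7.61 in the NUP98-JARID1A lines, against 9.66, 9.14, 9.99 and 10.15 in untreated lines 1 to 4, again without overlap. The difference was -1.86 ± 0.25 on the log2 scale (3.64-fold lower, limma adjusted p = 0.000764). Asns, the asparagine synthetase, had levels of 10.45, 10.05 and 9.96 in the NUP98-JARID1A lines, against 11.60, 11.08, 11.79 and 12.12 in untreated lines 1 to 4. The highest NUP98-JARID1A line stayed below the lowest untreated line, and the difference was -1.49 ± 0.24 (2.81-fold lower, limma adjusted p = 0.00193). Atf5 had levels of 8.04, 7.67 and 8.07 in the NUP98-JARID1A lines, against 9.0, 8.54, 9.68 and 10.24 in untreated lines 1 to 4. The untreated lines spread widely for this factor (SD 0.75, n = 4), and the difference of -1.44 ± 0.38 (2.71-fold lower) had a limma adjusted p of 0.0156.

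The message of Atf4 itself did not pass the test on its brightest probe set. It had levels of 12.38, 12.35 and 12.33 in the NUP98-JARID1A lines, against 12.56, 12.27, 12.63 and 12.67 in untreated lines 1 to 4, so that untreated line 2 was the lowest array. The difference was -0.18 ± 0.11 on the log2 scale (limma adjusted p = 0.211), with a 95% interval from -0.43 to 0.08. The call depended on untreated line 2, without which the difference was -0.27 with an adjusted p of 0.0401. Its second bright probe set gave a larger difference, described with the other probe sets below.

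The other 5 genes did not pass the test either. Ddit3 had a difference of 0.11 ± 0.13 (limma adjusted p = 0.506) and was the only one of the 10 with a positive value. The serine synthesis genes Psat1 and Phgdh had differences of -0.14 ± 0.17 and -0.13 ± 0.11, with limma adjusted p of 0.527 and 0.367. Slc7a11 had a difference of -0.06 ± 0.30 (limma adjusted p = 0.876), and its levels of 6.98, 6.97 and 6.78 in the NUP98-JARID1A lines fell inside the range of the untreated lines, 6.26 to 7.71. Atf3 had 6.73 in NUP98-JARID1A line 1 and 7.99 and 8.08 in lines 2 and 3, against 7.93, 7.83, 8.0 and 7.96 in untreated lines 1 to 4. Its difference of -0.33 ± 0.31 (limma adjusted p = 0.404) rested on line 1, without which it was 0.10.

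**Figure D2:**
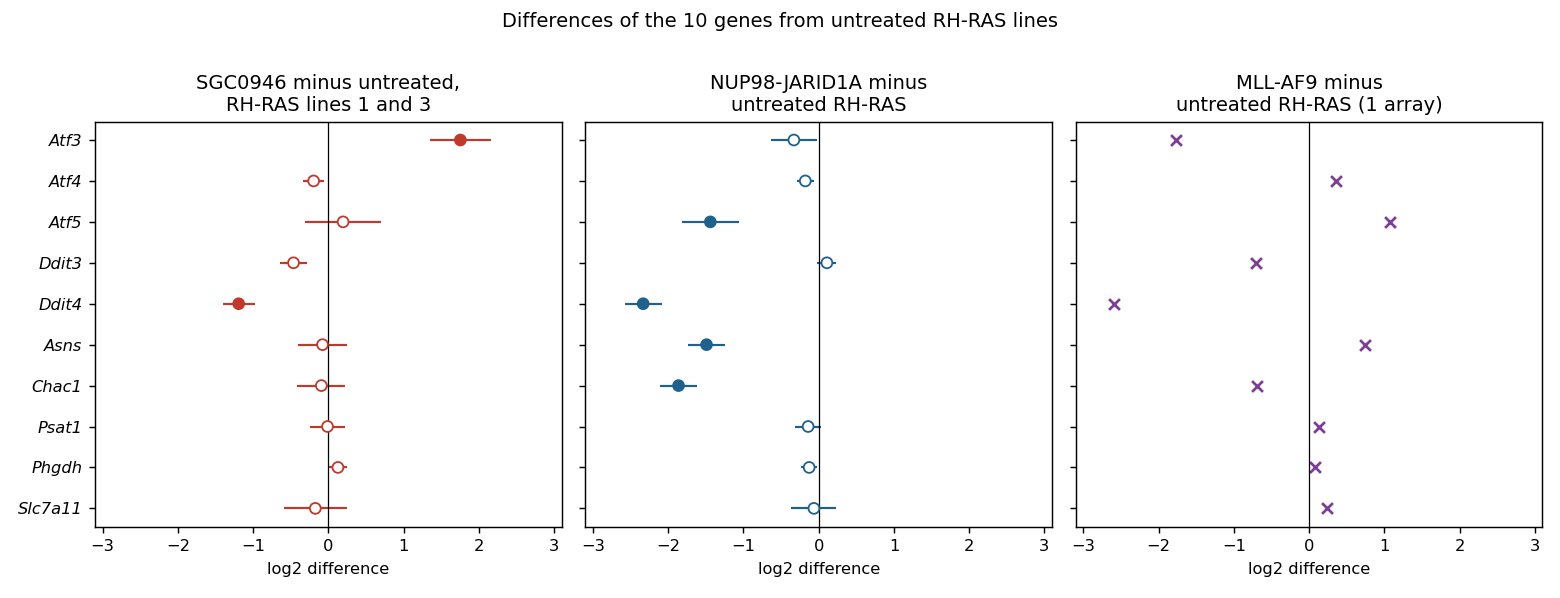
Log2 difference (horizontal axis) of each of the 10 genes (vertical axis) from untreated RH-RAS lines, for SGC0946 treatment, for NUP98-JARID1A and for the MLL-AF9 array. Bars are standard errors of the limma fits, filled points passed the threshold and crosses are differences of 1 array without a test; Ddit4 is the lowest point in all 3 panels, at -1.19, -2.33 and -2.60.

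Genes that work beside Asns in amino acid supply were also lower in the NUP98-JARID1A lines, where 18.5% of all genes tested were called lower. Of 11 tested enzymes of serine, proline and one-carbon metabolism, 8 were lower, none was higher and 3 did not pass, with a median difference of -0.94. Cth, which makes cysteine from cystathionine, had 3.25, 4.13 and 3.72 in the NUP98-JARID1A lines, against 8.41, 7.65, 8.90 and 9.91 in untreated lines 1 to 4, a difference of -5.02 ± 0.50 with a limma adjusted p of 0.000219. Its NUP98-JARID1A levels lay below the array medians, where RMA compresses differences. Gpt2, an alanine aminotransferase, and the mitochondrial folate enzymes Mthfd2 and Aldh1l2 differed by -2.29, -1.40 and -1.29. Of 10 amino acid transporters, 8 were lower, 1 was higher and 1 did not pass, with a median of -0.85. The lowest differences were -2.95 for Slc43a1, -1.52 for Slc1a4, -1.20 for Slc7a3 and -1.09 for Slc7a5, a large neutral amino acid carrier, while the 1 gene that was higher was the glutamine carrier Slc1a5, by 0.36. Slc7a3 lay below the array medians in all 3 NUP98-JARID1A lines, as Slc43a1 did in lines 1 and 3, so the sizes of these 2 differences are less certain. Of 13 genes of tRNA charging, 6 were lower, none was higher and 7 did not pass, with a median of -0.34. Cars and Iars, which charge cysteine and isoleucine tRNA, differed by -1.0 and -0.79, and Gars and Mars1 by -0.48 and -0.46.

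The list of ATF4 feedback genes and partners held both directions, with 6 of 11 lower, 1 higher and 4 not passing (median -0.50). Trib3, a pseudokinase that restrains ATF4, had 6.38, 6.77 and 6.83 in the NUP98-JARID1A lines, against 8.77, 8.34, 9.23 and 9.41 in untreated lines 1 to 4. The groups did not overlap, and the difference was -2.28 ± 0.26 with a limma adjusted p of 0.000395. Stc2, a secreted glycoprotein, and Ndrg1 differed by -3.73 and -2.30. Cebpb, a C/EBP factor that is also active in granulocytes and macrophages, was the gene that was higher, by 1.82.

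Lists for other arms of the stress responses did not show this direction. Over all genes tested 32.5% were called higher and 18.5% lower, so more genes higher than lower is also the direction of the background. Among 13 eIF2 alpha kinases and eIF2 factors, 6 were higher and 1 was lower (median 0.23), led by the heme-regulated kinase Eif2ak1 at 0.98, while Eif2s2, a subunit of eIF2, was lower by 0.59 on the log2 scale. Among 16 genes of the XBP1 and ATF6 response to unfolded protein, 7 were higher and 3 lower (median 0.38), with Ern1 at 1.15, Edem1 at 1.08, Calr at 0.91 and Atf6 at -0.96. Among 9 genes of NRF2 and glutathione metabolism, 5 were higher and none lower (median 0.41), with Nqo1 at 2.10, Gclm at 1.82, Gsr at 1.46 and Hmox1 at 0.92. Over all 83 tested genes of the 7 lists, amino acid genes and feedback genes included, 20 were higher and 32 lower, which is 62.7% of them, against 50.97% of all genes tested in either direction. Whether one list differed from another was not tested.

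Markers of several mature blood cells moved with this comparison. Of 9 late neutrophil markers tested, 8 were higher in the NUP98-JARID1A lines with a median difference of 5.63, and their summed linear intensity was 17732 to 83863 there, against 284.18 to 322.37 in the untreated lines, where 8 of the 9 averaged below the array median. Of 10 monocyte and macrophage markers, 6 were higher and 1 lower, with a median of 2.04 and sums of 28461 to 42936 in the NUP98-JARID1A lines, against 4018.5 to 10023 in untreated lines. Of 4 mast cell and basophil markers, Mcpt8 and Mitf were higher by 4.35 and 3.11, with sums of 1160.9 to 3130.8 in the NUP98-JARID1A lines, against 303.31 to 468.24 in untreated lines. Of 6 T and NK markers, Gzma and Cd3g were lower, with differences of -5.26 and -3.67, while the sums of the list, 745.25 to 3864.8 in the NUP98-JARID1A lines and 1110 to 2764 in untreated lines, overlapped. The part of these markers in the differences of Ddit4, Chac1, Asns, Atf5 and the amino acid genes was not tested.

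**Figure D3:**
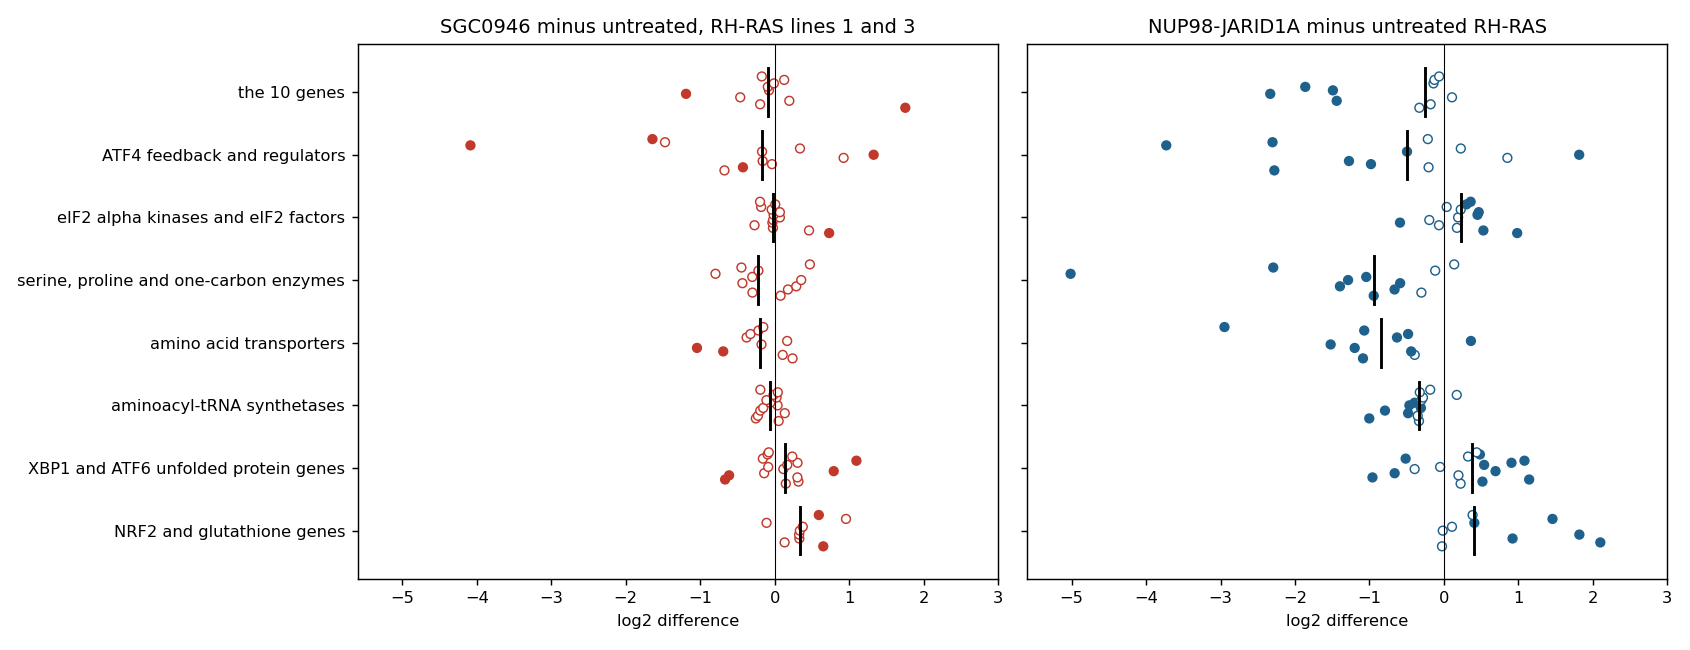
Log2 difference (horizontal axis) of every tested gene of each list (rows) for SGC0946 minus untreated RH-RAS lines 1 and 3 and for NUP98-JARID1A minus untreated RH-RAS. Filled points passed the limma threshold and black bars are list medians; in the NUP98-JARID1A panel the bars lie at -0.94 for the serine, proline and one-carbon enzymes and at 0.41 for the NRF2 and glutathione genes.

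SGC0946 was compared with no inhibitor within RH-RAS lines 1 and 3, which asks what 4 days of Dot1l inhibition did in cells of the same line. Atf3 rose and Ddit4 fell, and the other 8 genes did not pass the test. Over all genes tested, limma called 6.84% higher and 5.12% lower, so 1 of 10 in either direction is near the background. The median of the 10 differences was -0.08, against 0.02 over all genes.

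Atf3 had a level of 9.72 in both treated lines, against 7.93 in untreated line 1 and 8.0 in untreated line 3. Untreated lines 2 and 4, at 7.83 and 7.96, were close to these, so both treated arrays lay above every other array of the series. The mean change was 1.75 ± 0.40 on the log2 scale (3.38-fold higher, limma adjusted p = 0.0323), with 1.79 in line 1 and 1.72 in line 3. The standard error includes the spread of the NUP98-JARID1A lines, in which Atf3 had an SD of 0.75. The same change had an adjusted p of 0.102 in a fit with the line as a block, whereas a fit of the 4 arrays of lines 1 and 3 alone gave 3.7e-05.

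Ddit4 had levels of 10.54 and 10.35 in treated lines 1 and 3, against 11.46 and 11.81 in the same lines untreated. The change was -1.19 ± 0.21 on the log2 scale (2.28-fold lower, limma adjusted p = 0.0153, or 0.0323 when blocked by line), with -0.93 in line 1 and -1.46 in line 3. Untreated line 4, at 10.71, lay between the treated arrays and the other untreated lines, and with all 4 untreated lines as the control the difference was -0.86 with an adjusted p of 0.0612. Neither gene passed when any 1 of the 4 arrays of lines 1 and 3 was left out, which left 28 to 149 genes called in place of 1434. In these fits the lone array of a group is assumed to vary like the others.

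Asns, Chac1 and Atf5, which were low in the NUP98-JARID1A lines, did not pass the test under SGC0946. Asns had 11.75 and 11.49 in treated lines 1 and 3, against 11.60 and 11.79 untreated, a change of -0.08 ± 0.32 with a 95% interval from -0.83 to 0.68. Chac1 had 9.82 and 9.65 in the treated lines, against 9.66 and 9.99 untreated, a change of -0.09 ± 0.32 with an interval from -0.84 to 0.65. Atf5 had 9.68 and 9.40 in the treated lines, against 9.0 and 9.68 untreated, a change of 0.20 ± 0.50 with an interval from -0.97 to 1.37. For all 3 genes treated and untreated arrays overlapped, and these intervals leave room for changes in either direction. Their width includes the spread between untreated lines 2 and 4, which for Atf5 had 8.54 and 10.24. In a fit of the 4 arrays of lines 1 and 3 alone the changes were the same and did not pass. The standard errors there were 0.12 for Asns, 0.13 for Chac1 and 0.22 for Atf5.

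Atf4 had 12.48 and 12.32 in treated lines 1 and 3, against 12.56 and 12.63 untreated, a change of -0.20 ± 0.14 (limma adjusted p = 0.444). Ddit3, which encodes CHOP, had 8.41 and 8.03 in the treated lines, against 8.61 and 8.76 untreated, a change of -0.46 ± 0.18 with an adjusted p of 0.147. On these probe sets both messages were lower in both treated lines than in the same line untreated, and neither passed. The second probe set of Ddit3 had 6.83 and 6.49 in treated lines 1 and 3, against 6.65 and 6.85 untreated, so it was higher in line 1. The changes of Psat1, Phgdh and Slc7a11 were -0.01 ± 0.23, 0.13 ± 0.12 and -0.17 ± 0.42, with adjusted p of 0.987, 0.561 and 0.861.

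Lines 1 and 3 moved in opposite directions for 5 genes, Atf5, Asns, Chac1, Psat1 and Slc7a11, each higher with SGC0946 in line 1 and lower in line 3. Atf5 changed by 0.67 in line 1 and by -0.28 in line 3, and Slc7a11 by 0.17 and -0.52. The difference between the lines' changes was 0.95 ± 1.10 for Atf5 and 0.69 ± 0.93 for Slc7a11. Each of these lines has 1 array with SGC0946 and 1 without it, so the standard errors came from arrays of other lines. The limma test of this difference therefore could not decide whether lines 1 and 3 responded differently, and no conclusion is drawn from it. This comparison of the lines with each other was added after the values had been seen.

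Of 83 tested genes of the wider pathway, 6 rose and 7 fell with SGC0946, which is 15.7% of them, against 11.96% of all genes tested in either direction. None of the 11 serine, proline and one-carbon enzymes or the 13 tRNA charging genes passed, with medians of -0.22 and -0.06. Of 11 feedback genes and partners, 3 fell and 1 rose. Stc2 had 6.27 and 6.34 in treated lines 1 and 3, against 10.29 and 10.49 untreated, a change of -4.09 ± 0.58 (limma adjusted p = 0.0073). Gadd45a, a growth arrest gene, changed by -1.64, Cebpb by 1.33 and Ppp1r15a, which directs the phosphatase of eIF2 alpha, by -0.43. The transporters Slc7a3 and Slc7a1 changed by -1.04 and -0.69, and the kinase Eif2ak1 by 0.73. Among the genes of the unfolded protein response Edem1 and Sdf2l1 changed by 1.10 and 0.79 and Ern1 and Dnajb9 by -0.67 and -0.61. In the NRF2 list Nfe2l2, which encodes NRF2, and Gss changed by 0.65 and 0.59. With the line as a block the counts of 3 lower feedback genes, 2 lower transporters, 2 and 2 unfolded protein genes and 2 NRF2 genes became 2, 1, 1 and 1, and 1.

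Monocyte and macrophage markers moved with SGC0946. Of 10 tested, 9 were higher with a median change of 4.38, and their summed linear intensity was 40972 to 43082 in treated lines, 13011 in the MLL-AF9 line, 28461 to 42936 in the NUP98-JARID1A lines and 4018.5 to 10023 in untreated RH-RAS lines. The stem and progenitor markers had sums of 21082 to 21217 in treated lines, against 34353 to 35549 in untreated lines, and 4 of 8 fell. Of 6 T and NK markers, 2 fell, with changes of -5.25 for Gzma and -4.19 for Cd3g, with summed intensities of 474.54 to 484 in treated lines, against 1110 to 2764 in untreated lines. Of 4 mast cell and basophil markers, Mitf rose by 1.63 and Cpa3 fell by 2.24 on the log2 scale, with sums of 304.73 to 313.75 in treated lines, against 303.31 to 468.24 in untreated lines. The part of these lists in the changes of Atf3 and Ddit4 was not tested.

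Set directly against the NUP98-JARID1A lines, the SGC0946-treated lines were higher for Atf3, Chac1, Atf5, Ddit4 and Asns and lower for none of the 10 genes at the threshold, where limma called 15.0% of all genes higher and 25.3% lower. The treated arrays and the NUP98-JARID1A arrays also enter the 2 comparisons above, so these values are given side by side with them and not as further support. The differences were 2.12 ± 0.37 for Atf3 and 1.86 ± 0.29 for Chac1, with adjusted p of 0.00371 and 0.00238. They were 1.61 ± 0.46 for Atf5, 1.48 ± 0.19 for Ddit4 and 1.46 ± 0.30 for Asns, with adjusted p of 0.0265, 0.00119 and 0.00709. Atf5 did not pass without treated line 1, treated line 3 or NUP98-JARID1A line 2, with adjusted p of 0.135, 0.0989 and 0.0616, and Asns did not pass without treated line 1 (0.0571). Ddit3 was at -0.47 ± 0.16 with an adjusted p of 0.0524, and it passed as lower, at 0.0492, when genes had to lie above the array median on at least 5 arrays. The median of the 10 differences was 0.81, against -0.08 over all genes.

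The order of the groups therefore differed from gene to gene. For Asns, on its brightest probe set, and for Atf5 the MLL-AF9 array was highest, at 12.38 and 10.44. The treated and untreated RH-RAS lines came next and did not differ beyond their spread, and the NUP98-JARID1A lines were lowest. For Chac1 the treated and untreated RH-RAS lines, which averaged 9.73 and 9.74, stood above the MLL-AF9 array at 9.05, and the NUP98-JARID1A lines were lowest. For Ddit4 the untreated lines were highest, then the treated lines, then the NUP98-JARID1A lines at a mean of 8.97 ± 0.20 (SD, n = 3) with the MLL-AF9 array, at 8.70, just below their range. For Atf3 the treated lines stood at the top and the MLL-AF9 array at the bottom, with NUP98-JARID1A lines 2 and 3 near the untreated RH-RAS lines and NUP98-JARID1A line 1 below them.

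The MLL-AF9 line has 1 array, so no test or error is available for it. A gene was counted when it lay at least 2-fold outside the mean of the compared lines and beyond their range. Against the untreated RH-RAS lines 7.21% of genes were counted as higher and 5.78% as lower, and among the 10 genes these were 1 higher, Atf5, and 2 lower, Atf3 and Ddit4. Atf5 had 10.44 in the MLL-AF9 line, against a mean of 9.37 ± 0.75 in untreated lines (SD, n = 4), 2.10-fold higher. Atf3 had 6.17, against 7.93 ± 0.07 in untreated lines, 3.40-fold lower and the lowest array of the series for this gene. Ddit4 had 8.70, against 11.30 ± 0.46, 6.05-fold lower.

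Asns in the MLL-AF9 line, at 12.38, was above every untreated RH-RAS line but by less than 2-fold, with a difference of 0.74. Atf4, at 12.89, was likewise above every other array, with a difference of 0.36. Both orders held on the brightest probe set only. On the second bright probe set of Atf4 the MLL-AF9 array, at 11.38, lay below untreated lines 3 and 4, at 11.52 and 11.97. On the second probe set of Asns it was at 12.16, below untreated line 4 at 12.47. Ddit3, at 7.88, and Chac1, at 9.05, lay below all untreated lines by 0.71 and 0.69 on the log2 scale. Psat1, Phgdh and Slc7a11 fell inside the range of the untreated lines, with differences of 0.13, 0.07 and 0.24.

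Against the NUP98-JARID1A lines, 3.14% of genes were counted as higher and 6.64% as lower in the MLL-AF9 line. Among the 10 genes, 3 were higher, Atf5 by 2.51, Asns by 2.23 and Chac1 by 1.17, and 1 was lower, Atf3 by 1.43 on the log2 scale. Atf5 was thus 5.71-fold and Asns 4.68-fold brighter in MLL-AF9 than in NUP98-JARID1A cells. Ddit4 was low in both, with a difference of -0.26. Both fusions carried late neutrophil markers, with a summed linear intensity of 34953 in the MLL-AF9 line and 17732 to 83863 in the NUP98-JARID1A lines. The brightest in the MLL-AF9 line were S100a9 and S100a8, at 13.88 and 13.7. Of the 9 markers tested, 4 were counted as lower there than in the NUP98-JARID1A lines and 0 as higher. Ltf, for example, had 6.97 in the MLL-AF9 line, against 9.08 to 12.71 in the NUP98-JARID1A lines. Cth followed Asns, with 11.75 in the MLL-AF9 line, against 3.25 to 4.13 in the NUP98-JARID1A lines.

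The 4 untreated RH-RAS lines differed among themselves by more than 2-fold for Atf5, Slc7a11, Ddit4, Asns and Chac1, with ranges of 1.70, 1.45, 1.09, 1.04 and 1.02 log2 units. The share of all genes past 2-fold was not counted. A range of at least 0.5 units was reached by these 5 of the 10 genes and by 1928 of 11993 genes tested. Atf3 varied least, over 0.17 units. Atf4, Atf5, Asns, Chac1, Psat1 and Slc7a11 shared 1 order of lines, highest in line 4, then line 3, line 1 and line 2. That is 6 of 10 genes, against 6.35% of all genes tested with this order. Slc7a11, for example, had 7.71, 7.01, 6.93 and 6.26 in lines 4, 3, 1 and 2. For Atf4 and Psat1 the order depended on the probe set. On their second bright probe sets line 1, at 11.03 and 11.62, lay below line 2, at 11.33 and 11.77. The second probe set of Asns kept the order. The order was picked after the values had been seen, and the lines are 4 single arrays, so it is a description and was not tested.

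The shared order puts line 4 highest and line 2 lowest, so its 6 genes enter both of the next counts by definition. On the probe sets that stand for the genes, line 2 was the lowest for 8 of the 10, against 22.5% of all genes. Line 4 was the highest for 7, against 33.3%. Among genes with a range of at least 0.5 units over these lines, 9.96% of 1928 had the order, as did 4 of the 5 such genes here, the exception being Ddit4. Among the pathway lists it was held by 8 of 13 tRNA charging genes, 7 of 11 serine, proline and one-carbon enzymes, 5 of 11 feedback genes and 4 of 10 transporters. It was held by 2 of 16 unfolded protein genes, 1 of 9 NRF2 genes and 0 of 13 eIF2 kinases and factors. The monocyte and macrophage markers were highest in line 4 for 10 of 10 genes tested, and their part in these differences was not tested.

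**Figure D4:**
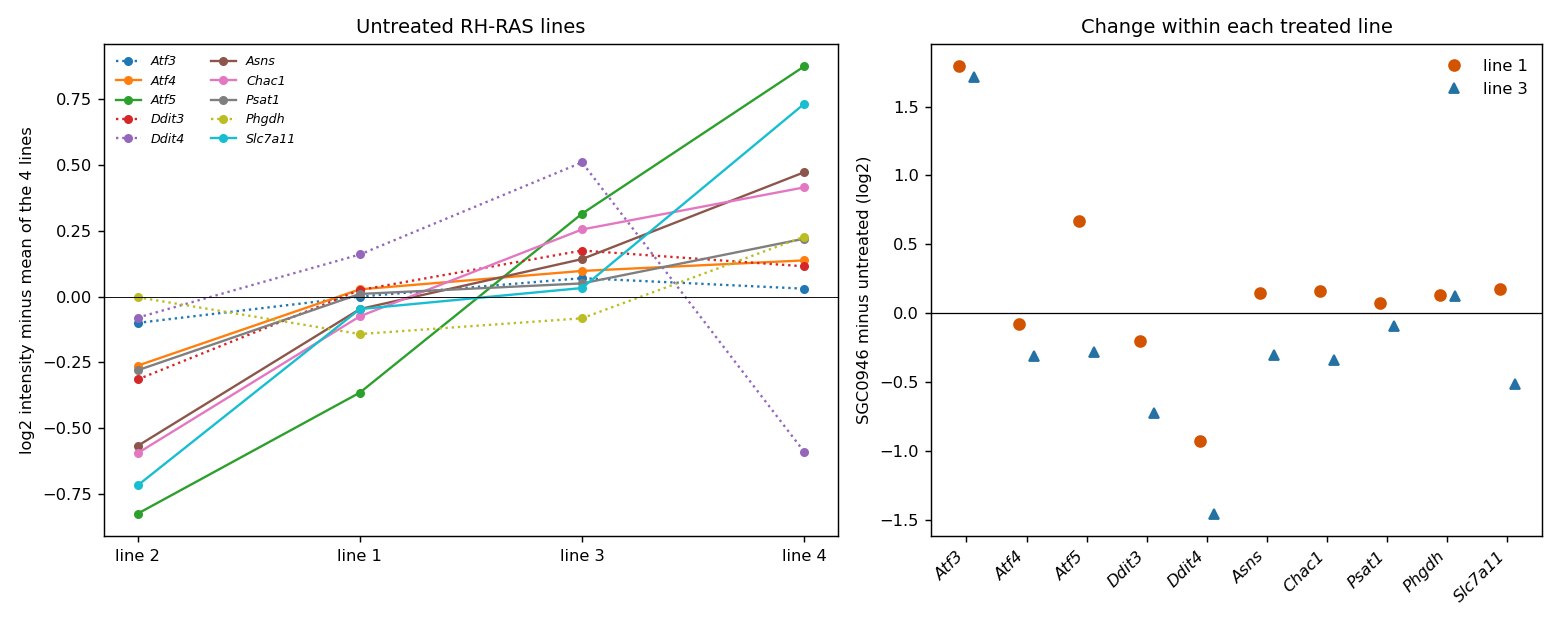
Left, log2 intensity of each of the 10 genes in the 4 untreated RH-RAS lines minus its mean over them (vertical axis), with the lines along the horizontal axis in the order shared by 6 genes (solid) and not by 4 (dotted). Right, the log2 change with SGC0946 (vertical axis) within line 1 and line 3 for each gene; Atf3 is at 1.79 and 1.72, Ddit4 at -0.93 and -1.46.

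The genes whose levels were most like those of the 4 most variable genes are given as a description over the 10 arrays, which share lines and groups. For Atf5 they were Psph, the last enzyme of serine synthesis (Pearson r 0.994), Asns (0.964) and Armcx5 (0.952). Psph had 10.94 and 10.73 in treated lines 1 and 3, 11.61 in the MLL-AF9 line, 9.92, 9.74 and 9.96 in the NUP98-JARID1A lines and 10.60, 10.29, 10.91 and 11.45 in untreated lines 1 to 4. It followed the Atf5 pattern down to the order of the untreated lines. For Chac1 they were Cep135 (0.982), Skp2 (0.977) and Rnf7 (0.974). For Ddit4 they were Med12l (0.988), Smad3 (0.987) and Pfn2 (0.983), and for Atf3 Ahnak (0.971), Nfkbie (0.970) and G530011O06Rik (0.970). Between members, Atf5 and Atf3 had an r of 0.041, and Atf5 and Atf4 one of 0.791.

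The other probe sets of these genes gave further calls in the NUP98-JARID1A comparison for Atf4, Psat1 and Phgdh. Atf3, Atf5, Ddit4 and Chac1 have 1 probe set each. The second probe set of Asns gave 10.03, 9.53 and 9.51 in the NUP98-JARID1A lines, against 11.54, 11.21, 11.97 and 12.47 in untreated lines 1 to 4, a difference of -2.11 ± 0.30 with a limma adjusted p of 0.000826 over 21691 probe sets. The second bright probe set of Atf4 gave 11.01, 10.28 and 10.92 in the NUP98-JARID1A lines, against 11.03, 11.33, 11.52 and 11.97 in the untreated lines. Its difference of -0.72 ± 0.25 passed the test (adjusted p = 0.0439), unlike that of the brighter probe set. The second probe set of Psat1 gave 11.35, 11.01 and 11.02 in the NUP98-JARID1A lines, against 11.62, 11.77, 12.02 and 12.43, without overlap, and a difference of -0.83 ± 0.20 (adjusted p = 0.0091). For Atf4 and Psat1 the answer to whether the message was lower in NUP98-JARID1A cells therefore depended on the probe set. The third probe set of Atf4 and the second of Slc7a11 lay below the median of all arrays, and the second of Ddit3 had between 6.44 and 6.85 everywhere.

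Phgdh has 6 probe sets, 4 of which name it alone. The one that represents it had 12.63 and 12.67 in treated lines 1 and 3, 12.71 in the MLL-AF9 line, 12.41, 12.63 and 12.48 in the NUP98-JARID1A lines and 12.49, 12.63, 12.55 and 12.86 in untreated lines 1 to 4, nearly level across the series. Another, 1454714_x_at, had 12.71 in NUP98-JARID1A line 1 and between 5.73 and 6.43 on the other 9 arrays, close to the array medians. A probe set shared with Gm6756 had 9.67 in the same line and between 6.32 and 7.69 elsewhere. The high array is the same for both, and the remaining 4 probe sets show nothing of the kind in that line. The fourth of its own probe sets, 1456584_x_at, was lower in the NUP98-JARID1A lines by 0.53 ± 0.18 on the log2 scale (adjusted p = 0.0357). The third, 1426658_x_at, had a difference of -0.01, and the probe set shared with Gm8096 ranged from 11.33 to 12.02 over the series. Probe sets ending in _x_at can bind more than 1 transcript, and the letters of the probes were not used here.

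**Figure D5:**
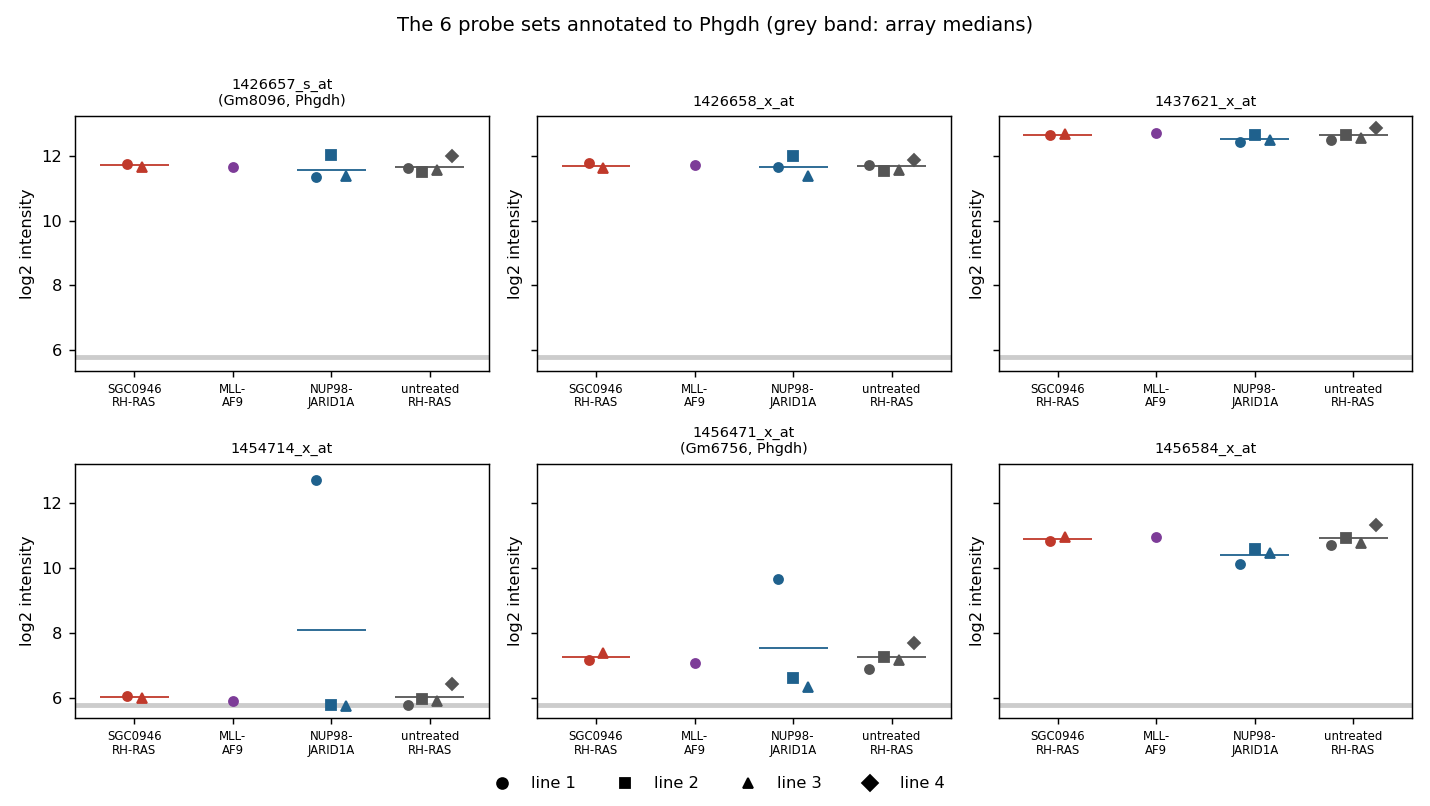
Log2 intensity (vertical axis) of the 6 probe sets annotated to Phgdh, by group (horizontal axis) and line number (marker shape), with horizontal bars for group means and a grey band for the range of array medians. In the panel of 1454714_x_at NUP98-JARID1A line 1 stands at 12.71 and the other 9 arrays between 5.73 and 6.43.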

How the data were processed

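RNA of 10 samples was hybridised to Affymetrix mouse arrays. The authors deposited 1 log2 intensity for each probe set and array, computed with RMA per the submitters' processing notes; its version is not given in the sources used here. RMA subtracts background, normalises quantiles and summarises probes, and it compresses low intensities. Nothing was normalised further, and precision is limited by how few arrays there are. Of 45101 probe sets, 34958 had 1 gene symbol in the supplied platform annotation, 932 had several and name no gene here, and 9211 are unnamed here. RefSeq GRCm38.p6 supplied names and promoter windows. A gene's brightest probe set (highest mean of 10 arrays) stood for it, and it was tested if at least 2 arrays had it above their median.

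Models were fitted with lmFit and eBayes of limma 3.58.1 under R 4.3.3, tested on simulated data, with Benjamini-Hochberg adjusted p over 11993 genes, a threshold of 0.05 and 5 residual degrees of freedom. The SGC0946 effect was treated minus untreated lines 1 and 3 in a fit of all 10 arrays, with untreated lines 2 and 4 in a coefficient of their own. The NUP98-JARID1A comparison used the 8 arrays without inhibitor. Lines 1 and 3 pair treated with untreated arrays, and line 1's deviations from the group means correlated at 0.292. Alternatives were the filter, the probe set rule, 2 rescalings, the variance prior, blocks, other array sets and each array left out. The 10 genes and all lists were chosen with earlier results of these data known. All 10 genes are named; from another list at most 4 genes a comparison are, those past the threshold with the largest differences, and where 5 or fewer of a list passed in 1 direction these may be named as well. Pathway genes with the promoter core are named too, and markers beside results they move with or as a check of cell type. Of 145 list genes 136 were matched; the others were not analysed here. Scan dates were not given, so no batch was tested.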

Additional observations from a re-analysis of the deposited data

How the results depend on the processing

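The fall of Ddit4, Chac1, Asns and Atf5 in NUP98-JARID1A lines passed in all 16 fits run. The SGC0946 count of 1434 genes became 3746 with only the 4 arrays of lines 1 and 3, 844 with the line as a replicate block and 28 to 1482 with an array left out, the lowest without treated line 3. Among the 10 genes the count of 2 became 1 with the block (Ddit4) and 1 with all 4 untreated lines as the control (Atf3), and 0 to 2 with an array left out. In the NUP98-JARID1A comparison the numbers mark different lines, and their block called 4938 genes in place of 6113 and the same 4 of the 10; neither block changed another call. Against NUP98-JARID1A, treated lines differed for 2228 to 4977 genes and 3 to 5 of the 10 with an array left out, and for 6 of the 10 with the stricter filter, which adds Ddit3. Past 4-fold, MLL-AF9 counted 522 genes and 1 of the 10 against RH-RAS, and 240 and 2 against NUP98-JARID1A. The longer core TGATGNAAT occurred in 0 of the 10 windows (1.08% of genes). Signs turned only for differences that had not passed. With SGC0946 Psat1 was 0.07, 0.05 and 0.02 with mean probe sets, subtracted medians and 4 control lines. In NUP98-JARID1A Phgdh was 0.35 with mean probe sets and Slc7a11 0.18 with the number block. Against NUP98-JARID1A treated Phgdh was -0.34 with mean probe sets and Atf4 -0.00 when quantile normalised again. With an array left out SGC0946 changes ran from -0.14 to 0.54 for Atf5, -0.21 to 0.06 for Asns, -0.26 to 0.07 for Chac1, -0.07 to 0.05 for Psat1 and -0.48 to 0.13 for Slc7a11. NUP98-JARID1A differences ran from -0.57 to 0.10 for Atf3, -0.26 to 0.04 for Psat1 and -0.30 to 0.18 for Slc7a11. Treated against NUP98-JARID1A they ran from -0.04 to 0.13 for Atf4, -0.02 to 0.28 for Psat1 and -0.42 to 0.19 for Slc7a11. Mean probe sets also called Atf4 (-0.39) and Psat1 (-0.49) lower in NUP98-JARID1A, as leaving out untreated line 2 did Atf4 (-0.27), and gave no value for Slc7a11. The order of untreated lines held for 5 to 7 of the genes under 3 settings added later. The cause of these shifts was not tested.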
